A study of Mus musculus with 18 samples.

Results

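Tbx5 sites that lie in gene deserts and have no Pitx1 site beside them were examined in a chromatin immunoprecipitation sequencing (ChIP-seq) study of mouse limb buds. A site is the summit, the highest point, of a deposited Tbx5 peak. Sites were chosen by 2 distances measured in these data, so their number and their distance from Pitx1 follow from the rule. A site was included when no summit of the longer of the 2 deposited Pitx1 lists lay within 1000 bp and when it was over 100 kb from the body of any protein-coding gene on build mm10. The rule was met by 992 of the 10273 Tbx5 summits, and both lists together hold 65214 summits. They are called solitary desert sites below, and the 1363 desert Tbx5 summits with a Pitx1 summit within 1000 bp are called paired desert sites. The Tbx5 sample came from forelimb buds of wild-type CD1 embryos at e10.5, and the Pitx1 sample from hindlimb buds of wild-type CD1 embryos at e11.5. CD1 is an outbred strain, and each factor was pulled down with a homemade antibody (NP1723 for Tbx5 and 960A for Pitx1) and read as paired ends. There was 1 sample per factor, so no value has a replicate error, and factor, limb, stage and antibody differ together. No difference between classes of sites was tested for that reason. Exact Clopper-Pearson 95% intervals cover the counting of summits only, and the number of reads is unknown.

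Tbx5 is a T-box transcription factor that is needed to start the forelimb bud, where the growth factor gene Fgf10 is among its known targets. Pitx1 is a homeodomain factor of the hindlimb bud. Gene deserts are long stretches between protein-coding genes, and those beside developmental regulators are known to hold enhancers that act on a gene from far away. T-box proteins bind DNA through a short element whose core reads GGTGTGA.

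Only 4 solitary desert sites had their summit inside a promoter window of the RefSeq table (build GRCm38.p6), which runs from 250 bases before to 50 bases after the start of a gene. All 4 genes are long non-coding RNA (lncRNA) genes, and their functions are not described here. The windows are printed because they are the DNA under these sites, and the first holds the summit with the highest score of all 992. Each runs 5′ to 3′ on the minus strand, the strand of the gene, and capitals mark matches to GGTGTGA or AGGTGTGA on either strand.
Gm3716, chr5:64610650-64610949: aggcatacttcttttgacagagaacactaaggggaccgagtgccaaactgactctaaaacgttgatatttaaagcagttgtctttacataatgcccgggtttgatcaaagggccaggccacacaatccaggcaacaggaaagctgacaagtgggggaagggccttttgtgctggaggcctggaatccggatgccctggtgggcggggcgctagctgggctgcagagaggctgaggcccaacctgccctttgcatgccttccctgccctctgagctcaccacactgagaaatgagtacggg
3110009F21Rik, chr12:110158024-110158323: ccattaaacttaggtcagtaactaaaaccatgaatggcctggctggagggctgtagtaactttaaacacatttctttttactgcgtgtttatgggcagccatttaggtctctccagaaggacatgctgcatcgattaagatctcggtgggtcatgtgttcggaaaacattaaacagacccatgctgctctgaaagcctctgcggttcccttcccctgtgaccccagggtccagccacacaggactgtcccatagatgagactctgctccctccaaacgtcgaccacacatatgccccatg
Gm33970, chr1:80038412-80038711: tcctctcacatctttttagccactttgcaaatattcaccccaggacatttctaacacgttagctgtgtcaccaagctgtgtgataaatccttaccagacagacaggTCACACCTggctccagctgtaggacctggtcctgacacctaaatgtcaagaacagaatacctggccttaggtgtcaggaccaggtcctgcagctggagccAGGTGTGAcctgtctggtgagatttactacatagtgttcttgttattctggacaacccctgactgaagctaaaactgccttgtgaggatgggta
Gm36335, chr10:54365174-54365473: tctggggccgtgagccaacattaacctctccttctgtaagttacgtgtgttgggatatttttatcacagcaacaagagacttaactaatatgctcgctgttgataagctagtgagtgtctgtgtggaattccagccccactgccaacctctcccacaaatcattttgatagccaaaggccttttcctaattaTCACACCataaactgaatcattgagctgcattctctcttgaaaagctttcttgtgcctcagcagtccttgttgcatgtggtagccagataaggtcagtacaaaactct
The summits stood at base 118 of the Gm3716 window (score 242), base 137 of 3110009F21Rik (11.7), base 168 of Gm33970 (5.23) and base 98 of Gm36335 (2.61). The score was read as the authors' −log10 of the peak's q-value, the form in which MACS2 writes summit lists. GGTGTGA was found in 2 of the 4 windows, Gm33970 and Gm36335. The Gm33970 window held it on both strands, from base 107 and from base 208, on either side of the summit. Both copies extend to AGGTGTGA. They lie in stretches that are near reverse complements of each other, so the second copy is not independent of the first. The Gm36335 window held 1 copy from base 193. Any GGTGTGA also counts where it is part of AGGTGTGA. Of all 32851 promoter windows of the table, 3.98% held GGTGTGA and 1.28% AGGTGTGA, and neither was found in the 7 windows that hold a paired desert site. A match is a description of the letters and not a binding site. The window with the strongest summit held neither motif, which says only that these letters are absent from those 300 bases.

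Solitary desert sites made up 42.1% of the 2355 desert Tbx5 summits (95% interval 40.1 to 44.1). Among the 7918 Tbx5 summits within 100 kb of a gene, 3622 or 45.7% (44.6 to 46.8) had no Pitx1 summit within 1000 bp, and in the whole list 44.9%. The share in deserts was thus somewhat lower than that in the rest of the list. The rule itself fixed these counts, and they are given as a description.

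Their scores were mostly low. The median was 7.02 and the quartiles 4.67 and 13.2, with a lowest value of 1.61 and a highest of 242. Paired desert sites had a median of 11.002 and quartiles of 5.81 and 25.5, while Tbx5 summits without Pitx1 near genes had a median of 7.02 and quartiles of 4.67 and 13.2. Scores of 50 or more were found for 5.04% of solitary desert sites (3.76 to 6.59), against 12.5% of paired desert sites (10.8 to 14.3) and 4.36% (3.72 to 5.08) of Tbx5 summits without Pitx1 near genes. The score distribution of the solitary sites therefore lay close to that of the sites without Pitx1 near genes and below that of the paired sites in deserts. In 5 groups of the whole Tbx5 list from low to high scores, solitary sites were 55.5%, 51.1%, 42.5%, 35.6% and 26.99% of the desert summits. Few of the strongest Tbx5 summits were solitary desert sites, with 3 among the first 100 and 22 among the first 500. The whole list held 992 such sites among 10273 summits.

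**Figure D1:**
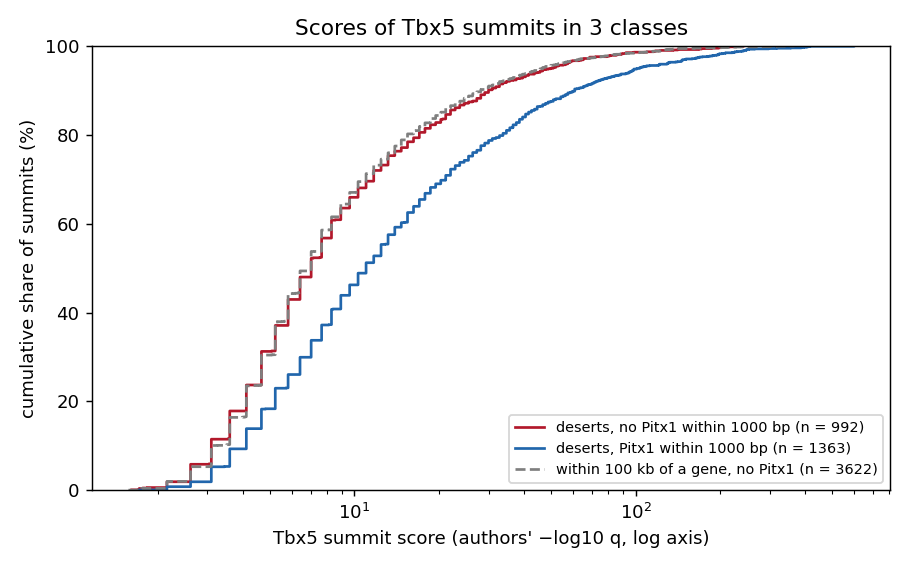
Cumulative share of Tbx5 summits (y axis, percent) by score (x axis, read as the authors' −log10 q, on a log axis) for solitary desert sites (red), paired desert sites (blue) and Tbx5 summits without Pitx1 within 100 kb of a gene (grey, dashed). The red and grey curves run together, with medians of 7.02 each, and the blue curve lies to the right, with a median of 11.002.

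The 15 strongest solitary desert sites lay in 15 different deserts. The first, with a score of 242 and rank 72 of the Tbx5 list, was the one in the Gm3716 window, at chromosome 5 position 64610832. It lay 259 kb from Tbc1d1, which encodes a regulator of Rab proteins, and 192 kb from the predicted gene Gm38457. The second scored 229 at chromosome 13 position 90281095, between Tmem167 (166 kb away) and Atp6ap1l (602 kb). The third scored 211 at chromosome 4 position 54469457. Its distance to Zfp462, a zinc finger gene, was 475 kb, and a Pitx1 summit stood 1.22 kb away, just outside the window of the rule. Next came a score of 202 at chromosome 4 position 35477849, between C9orf72 and Lingo2.

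The site of score 186 (chromosome 8 position 91953174) fell between the Iroquois homeobox genes Irx3 (152 kb away) and Irx5 (405 kb), which act in early limb patterning. Slit3, which encodes a secreted guidance protein, was 138 kb from the site of score 198 (chromosome 11 position 34983345). Fgfr2, the gene of a receptor for fibroblast growth factors, was 154 kb from the site of score 136 (chromosome 7 position 130008000), which stood 2.13 kb from the nearest Pitx1 summit. Fibin, whose zebrafish counterpart acts in the start of the pectoral fin bud, was 114 kb from the site of score 141 (chromosome 2 position 110476585). Jarid2, which encodes a partner of the Polycomb complex, was 739.9 kb from the site of score 172 (chromosome 13 position 43990901), for which Cd83 was nearer at 188 kb. These are neighbours by position, and which gene a site acts on was not measured.

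The other 6 of the 15 stood between Dok5 and Cbln4 (168), Rybp and Shq1 (123), Rps24 and Zmiz1 (118), Cntn3 and Chl1 (116), Astn2 and Tlr4 (109.9), and Plpp3 and Usp24 (98.5). The sites beside Chl1, a neural adhesion gene, and Tlr4, a receptor of innate immunity, were the only 2 of the 15 with no Pitx1 summit within 100 kb, at 178 kb and 145 kb. In contrast 5 of the 15 had a Pitx1 summit within 5 kb.

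Distances from solitary sites to the nearest Pitx1 summit were spread widely. The median was 14.9 kb, with quartiles of 5.50 and 46.1 kb and a maximum of 1859 kb. Distances of 1 to 2 kb were found for 92 sites (9.27%), 2 to 5 kb for 140 (14.1%), 5 to 20 kb for 340 (34.3%), 20 to 100 kb for 298 (30.04%) and over 100 kb for 122 (12.3%). Median scores in these classes were 7.02, 8.29, 6.71, 6.40 and 6.40, and the highest scores 211, 186, 242, 202 and 116. Upper quartiles were 17.4, 17.8, 13.2, 11.7 and 13.0. Medians thus lay close together, while the upper quartiles were higher within 5 kb of a Pitx1 summit than beyond.

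Numbers are missing from the deposited Pitx1 list, in which peaks are numbered along the genome and 77.8% of numbers up to the highest are present. For 643 solitary sites, or 64.8% (61.8 to 67.8), the Pitx1 summits on both sides carried consecutive numbers, so that no called Pitx1 peak between them was left out of the list. For the other 349 a called but unlisted Pitx1 peak may lie in between. The median score was 7.02 in both sets. Of the 15 strongest sites, 7 were in the first set, among them those beside Irx3, Zfp462, Fibin and Cd83. The other 8, where an unlisted Pitx1 peak may lie in between, included the Gm3716 site and those beside Chl1 and Tlr4.

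At the edges of the rule, the nearest included sites were 1001 bp (score 32.8, between Nmbr and Cited2), 1002 bp (7.64, between Pax1 and Foxa2) and 1010 bp (5.81, between Tenm3 and Aga) from a Pitx1 summit. The nearest excluded desert summits were at 995 bp (4.13, between Ubash3b and Gm40514), 992 bp (10.3, between Psmd7 and Zfhx3) and 964 bp (4.13, between Irx3 and Irx5). By distance from genes, the last included sites lay 100.1 kb from Bambi (53.1), 100.3 kb from Ext1 (7.02) and 100.4 kb from Gap43 (20.6). The first excluded were 99.95 kb from Fbxo4 (4.13), 99.9 kb from Hmga2 (26.3) and 99.8 kb from Aadat (10.3). The included and the excluded sites at the edges overlapped in score.

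A desert was taken as an unbroken stretch in which every base is over 100 kb from a protein-coding gene. There were 1721 deserts, of which 1689 had a gene on both sides, a median length of 219 kb and 785 Mb in all. Solitary sites were spread thinly over them, with at least 1 in 495 deserts, or 28.8% (26.6 to 31.0). Of these, 253 held a single site, 242 held 2 or more and 36 held 5 or more. Paired sites were found in 481 deserts and both kinds in 303. Another 192 deserts held solitary and no paired sites, and 178 held paired and no solitary ones. In 30 deserts with solitary sites, 39 sites in all, the Pitx1 list had no summit.

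Long deserts held more sites but fewer per Mb. Of the 71 deserts over 2000 kb, 70.4% held a solitary site, against 7.81% of the 525 deserts up to 100 kb. The density was 2.25 per Mb in deserts up to 100 kb, 1.55 from 100 to 300 kb, 1.54 from 300 to 1000 kb, 1.05 from 1000 to 2000 kb and 0.857 above. Measured from the nearest gene instead, it was 1.64 per Mb at 100 to 200 kb (exact Poisson 95% interval 1.49 to 1.81), 1.54 at 200 to 300 kb, 1.06 at 300 to 500 kb, 0.861 at 500 to 1000 kb and 0.730 (0.548 to 0.952) beyond. Paired sites were 2.26, 2.43, 1.63, 0.930 and 0.595 per Mb in the same classes. Solitary sites made up 42.1% (38.9 to 45.3), 38.8% (34.8 to 42.98), 39.4% (34.8 to 44.1), 48.1% (42.2 to 54.0) and 55.1% (44.7 to 65.2) of desert Tbx5 summits in these classes. The interval of the farthest class overlaps those at 100 to 200 kb and at 500 to 1000 kb and lies above those at 200 to 300 kb and at 300 to 500 kb. These intervals cover the counting of summits only, and a difference between distance classes was not tested. Median scores of solitary sites were 7.02, 7.02, 8.29, 6.40 and 6.40 in the 5 classes.

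**Figure D2:**
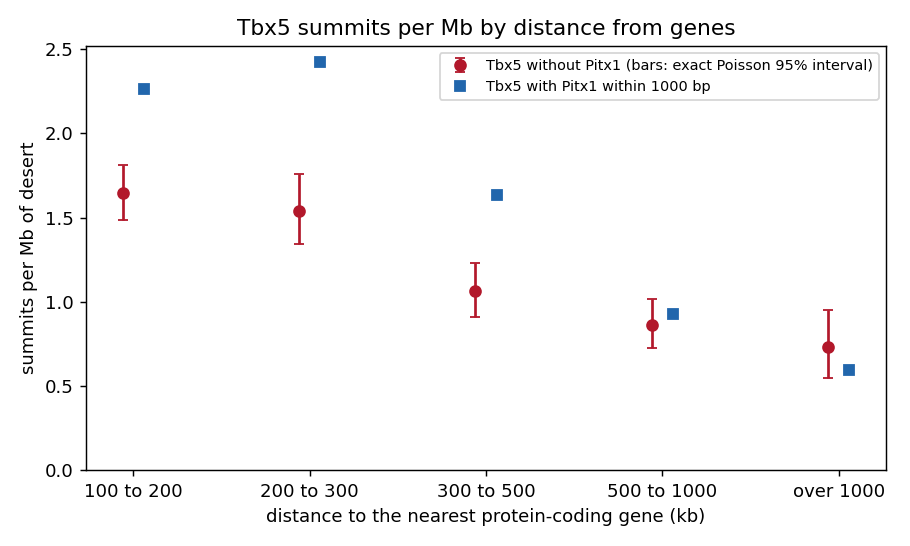
Tbx5 summits per Mb of desert (y axis) by distance to the nearest protein-coding gene (x axis, kb) for solitary sites (red circles, with exact Poisson 95% intervals) and paired sites (blue squares), in deserts with a gene on both sides. Solitary sites are 1.64 per Mb at 100 to 200 kb and 0.730 beyond 1000 kb, and paired sites 2.26 and 0.595.

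The 10 deserts with most solitary sites held 81 of them, or 8.17%, in 2.84% of the desert length. They were chosen by these same counts, so a share of sites above the share of length is partly built in. The last place was shared by 5 deserts with 6 sites each and went to the one with most sites per Mb, so the share of length depends on that choice. The longest of these, 3497 kb between Zeb2, a zinc finger homeobox repressor, and Acvr2a, an activin receptor, held 11 solitary sites, 7 paired sites and 64 Pitx1 summits. Its solitary sites scored between 2.15 and 32.8, with the highest at chromosome 2 position 45371583, 254 kb from Zeb2, and 30.9 at position 47351564. They fell into groups 124 to 457 kb, 1430 to 1655 kb and 2193 to 2234 kb from Zeb2, and none lay closer than 1463 kb to Acvr2a.

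Between the adhesion receptor genes Adgrl2 and Adgrl4, 2249 kb of desert held 10 solitary and 10 paired sites with 75 Pitx1 summits. The highest score was 45.7, at chromosome 3 position 149259764 and 271 kb from Adgrl2, inside the lncRNA gene Gm30382. The other 9 scored between 3.60 and 18.6.

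The desert of 3242 kb between Tenm2, a teneurin adhesion gene, and Mat2b had 9 solitary and 3 paired sites with 31 Pitx1 summits. All 9 lay on the far side from Tenm2, at 2114 to 3159 kb. The 3 that fell inside the lncRNA gene Gm12132 had scores of 20.3, 37.6 and 46.8 and were 131, 181 and 120 kb from the nearest Pitx1 summit. In this stretch Tbx5 summits of moderate score stood without a Pitx1 summit within 100 kb.

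Epha7, an Eph receptor gene, and Map3k7, a kinase of transforming growth factor signalling, bound a desert of 2796 kb with 8 solitary and 4 paired sites. Its highest score of 63.0 was at chromosome 4 position 29655805, 688 kb from Epha7. The deserts between Gm40892 and Flrt2 (8 solitary, 15 paired), Eno1b and Dtwd2 (8 and 9), Ets1 and Kirrel3 (7 and 7) and Slc10a2 and Efnb2 (7 and 12) had highest solitary scores of 16.2, 10.3, 14.7 and 31.9. Ets1 is a transcription factor gene of the endothelium, and Efnb2 encodes an ephrin ligand. Beside Zfp608, 1195 kb up to Gramd3 held 7 solitary sites with scores of at most 13.2 among 24 paired sites and 89 Pitx1 summits, so solitary sites were the smaller part there.

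Of the 5 deserts with 6 solitary sites, the one kept had no paired site, while the other 4 held 9 (between Fbxo8 and Hand2), 5 (Dok5 and Cbln4), 2 (Sall1 and Tox3) and 2 (Pabpc4l and Pcdh18). It lay between Ppp2r3a, a phosphatase subunit gene, and Ephb1, an Eph receptor gene, was 470 kb long and had 6 solitary sites and 5 Pitx1 summits. The sites scored 4.67, 5.81, 5.81, 12.4, 25.5 and 8.29 from the Ppp2r3a side on, the highest being at chromosome 9 position 101555459. All were 18.1 kb or more from a Pitx1 summit.

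**Figure D3:**
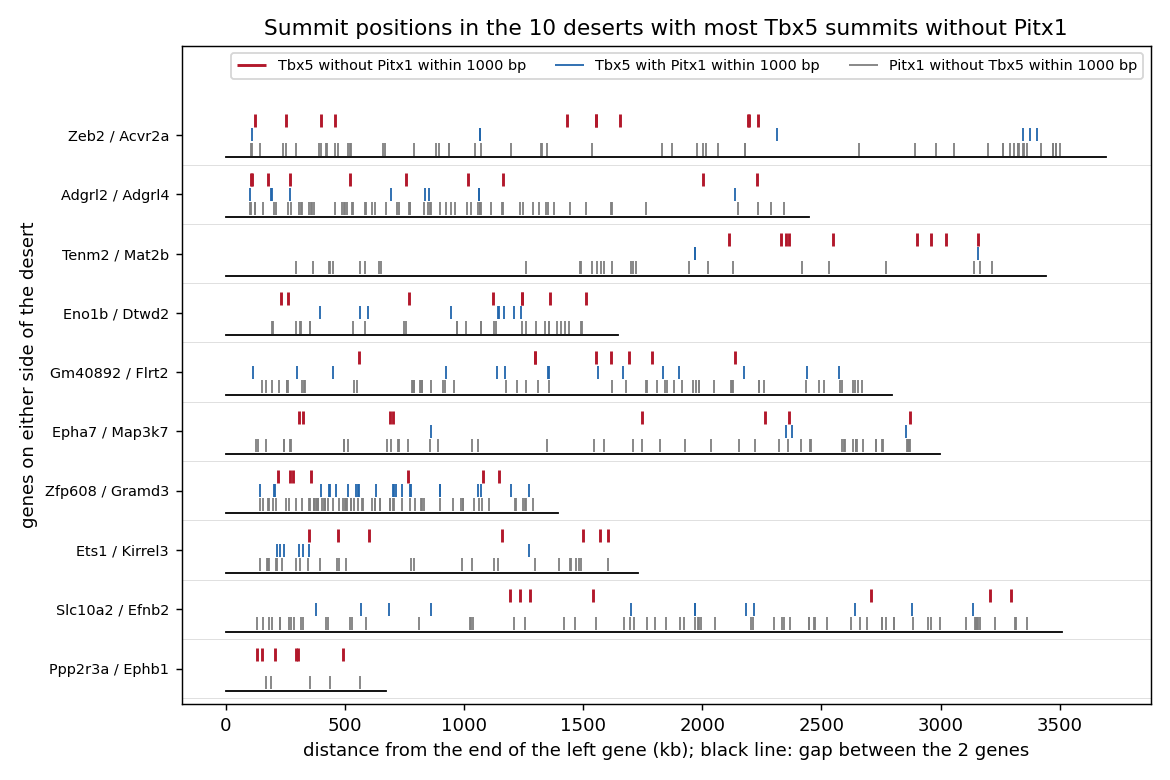
Positions of Tbx5 summits without Pitx1 (red), Tbx5 summits with Pitx1 (blue) and Pitx1 summits without Tbx5 (grey) in the 10 deserts with most solitary sites, as distance from the end of the left gene (x axis, kb), one desert per line with its 2 genes named on the y axis. The 9 solitary sites of the Tenm2 / Mat2b desert all lie over 2000 kb from Tenm2, and the Ppp2r3a / Ephb1 desert holds no blue mark.

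Among deserts with at least 5 solitary sites, short ones have high densities by construction, since the number of sites is divided by the length. The 211 kb between Egflam, a matrix protein gene, and Gdnf, a neurotrophic factor gene, held 5 (23.7 per Mb), with scores of at most 8.29. Between Ldb2, which encodes a LIM domain binding protein, and Qdpr there were 5 (11.51 per Mb) with scores of at most 13.2.

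The desert beside Mtx2 flanks the Hoxd cluster and is known to hold limb enhancers of Hoxd genes. Its 375 kb up to the predicted gene Gm50595 held 5 solitary sites (13.3 per Mb), 12 paired sites and 36 Pitx1 summits. The solitary scores were 29.1, 11.002, 7.64, 41.6 and 3.10 with growing distance from Mtx2. The sites with scores of 7.64 and 41.6, at chromosome 2 positions 75141811 and 75269610, were inside the lncRNA gene 2600014E21Rik.

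**Figure D4:**
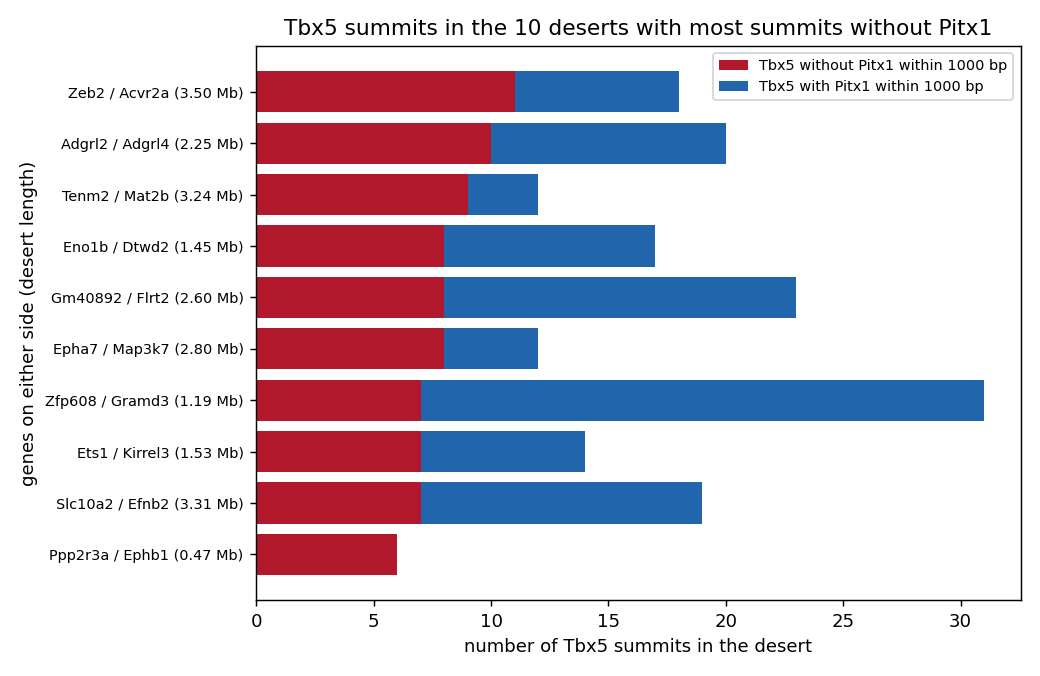
Number of Tbx5 summits (x axis) in the 10 deserts with most solitary sites, named by the genes on either side with their length (y axis). Red bars are solitary sites, from 11 beside Zeb2 to 6 between Ppp2r3a and Ephb1, and blue bars paired sites, from 0 between Ppp2r3a and Ephb1 to 24 beside Zfp608.

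Solitary sites rarely came close together. Of the 992, 85 or 8.57% (6.90 to 10.49) had another solitary site within 10 kb, while 329 of the 1363 paired desert sites, or 24.1% (21.9 to 26.5), had another paired site within 10 kb. These same-class shares partly follow from the rule, because Tbx5 summits within 1000 bp of the same Pitx1 summit are all paired. A solitary site with only a paired site nearby was not counted. The share with any other Tbx5 summit within 10 kb was 17.1% (14.8 to 19.6) for solitary and 29.9% (27.5 to 32.4) for paired desert sites, and 17.5% (16.3 to 18.8) for Tbx5 summits without Pitx1 near genes. The 85 formed 38 pairs and 3 runs of 3. A run of 8.25 kb was found 108 to 116 kb from Hand2, a regulator of posterior identity in limb mesenchyme, with scores of 38.6, 27.2 and 5.81 at chromosome 8 positions 57204655, 57209758 and 57212903. Another run was in the lncRNA gene Gm41264 near Egflam, with scores of 2.61, 3.60 and 8.29. The pairs with the highest summed scores were the one of the Gm3716 site (242 and 4.13) and one between Icos and Pard3b (81.5 and 10.3).

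Deserts beside genes of limb development held more solitary sites per Mb than deserts as a whole, and more paired sites and Pitx1 summits as well. A desert was counted for a gene list when the protein-coding gene at either end was on the list, of which 69 of 70 symbols matched for limb transcription factors and 80 of 80 for limb signalling. For limb transcription factors, 25 of 44 deserts (56.8%, against 28.8% of all deserts) held 76 solitary sites at 3.76 per Mb. All deserts together held 1.26 per Mb, or 1.44 without X and Y. Beside limb transcription factors, paired sites were 7.13 per Mb, against 1.73 in all deserts (1.99 without X and Y). Pitx1 summits were 36.2 per Mb, against 12.9. Solitary sites were 34.5% (28.3 to 41.2) of the Tbx5 summits in these deserts, against 42.1% in all, and their median score was 7.02 in both. These deserts had a median length of 349 kb, above the 219 kb of all deserts, so the shares of deserts with a site come from deserts of unequal length.

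Among them, the desert of 527 kb between Fbxo8 and Hand2 had 6 solitary sites, of which the run described above was the strongest part, and 9 paired sites. Beside Sall1, a zinc finger gene of distal limb development, 1003 kb up to Tox3 held 6 solitary sites and 2 paired ones. The solitary sites there scored at most 30.9 (chromosome 8 position 89371372). On the other side of Sall1, up to Cyld, 1 solitary site scored 85.1. Between Meis1, a gene of the proximal limb, and Spred2, 5 solitary sites scored at most 18.6, and on the other side of Meis1, up to Etaa1, 4 scored at most 27.2. Between Adamts16 and Irx1, 5 scored at most 12.4, and between Irx1 and Irx2 there was 1 with a score of 3.10. The desert next to Nr2f2, a nuclear receptor gene of limb mesenchyme, held 5 with scores of 5.81, 68.6, 18.6, 10.3 and 37.6, the last 129 kb from Nr2f2.

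Genes of limb signalling bounded 58 deserts, of which 30 (51.7%) held 65 solitary sites at 1.81 per Mb, beside 3.70 paired sites per Mb. Epha7 led this list. Beside Bmp4, a bone morphogenetic protein gene, 5 solitary sites scored at most 56.3 (chromosome 14 position 45956786, 427 kb from Bmp4), and beside Slit2, 5 scored at most 23.7. Next to Fzd8, a Wnt receptor gene, there were 4 with 1 paired site, and between Slc4a3 and Epha4 there were 4 with 18 paired sites. The 2 groups of sites thus had very different proportions in these last deserts.

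For cartilage and bone genes, 8 of 21 deserts (38.1%) held 20 solitary sites, at 2.59 per Mb. The 856 kb before Sox9, the main regulator of cartilage, held 5, with scores of at most 15.4, and 9 paired sites. Between Pax1, a gene of the axial and shoulder skeleton, and Foxa2 there were 4 with scores of at most 34.7 and 1 paired site, and beside Trps1 4 with scores of at most 28.2. Transcription factor genes taken by symbol, which repeat many of the limb factors, had solitary sites in 63 of 120 deserts (52.5%), at 2.25 per Mb.

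Lists of other tissues did not stand uniformly below the limb lists. Muscle genes had solitary sites in 7 of 13 deserts (1.83 per Mb), and 13 sites in all. Blood and endothelial genes had them in 3 of 6 (2.81 per Mb), of which 7 of 10 sites were beside Ets1. Ectoderm genes had them in 3 of 7 (2.75 per Mb, 4 sites), the highest with a score of 65.2 between Fermt1 and Bmp2, which is itself a bone morphogenetic protein gene of the limb. Heart genes, of interest since Tbx5 also acts in the heart, had them in 3 of 8 (1.33 per Mb, 4 sites, score at most 13.2).

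Neural genes and cadherins bounded long deserts that were poor in sites of every kind. Of 43 deserts beside neural genes, 20 (46.5%) held 34 solitary sites at 0.847 per Mb, beside 0.598 paired sites and 6.53 Pitx1 summits per Mb. Solitary sites were 58.6% (44.9 to 71.4) of the Tbx5 summits there. Between Api5 and Lrrc4c, a synaptic adhesion gene, 3 solitary sites with scores of 51.0, 19.5 and 27.2 stood with no paired site and 112 kb or more from any Pitx1 summit. Between Igfbp7 and Adgrl3 there were 5, the highest with a score of 57.4, and on the other side of Adgrl3, up to Tecrl, there was 1 with a score of 4.67. For cadherins and protocadherins, 17 of 34 deserts held 44 solitary sites at 0.732 per Mb, and for odorant, vomeronasal and taste receptors 3 of 28 deserts (10.7%) held 5 sites at 0.800 per Mb.

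**Figure D5:**
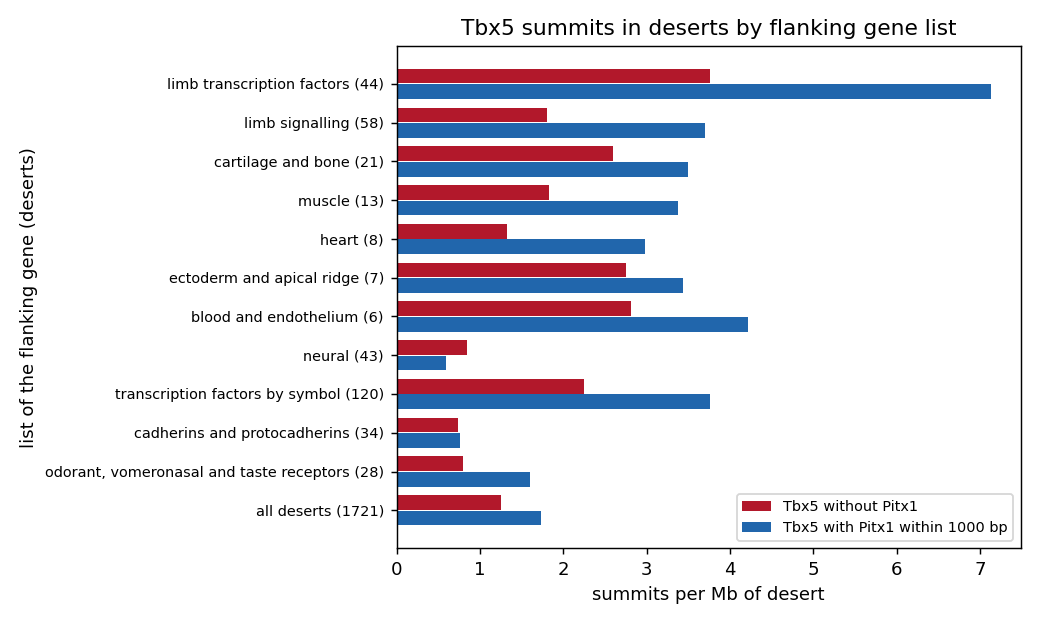
Tbx5 summits per Mb of desert (x axis) for deserts with a gene of each list at either end (y axis, number of deserts in brackets), with solitary sites in red and paired sites in blue. Solitary sites are 3.76 per Mb beside limb transcription factors and 1.26 over all deserts, and outnumber paired sites only beside neural genes.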

How the data were processed

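Peak summits of 2 of the 18 ChIP-seq samples were used, and the other samples are not analysed here. The submitters' processing notes name Bowtie 1.1.2, Bowtie2 2.2.6, HOMER and MACS2 2.1.1.20160309 without their roles. The deposited score was read as a −log10 q-value, because the lowest values (1.42 for Tbx5, 1.31 for Pitx1) are above 1.30, which is −log10 of 0.05. Of the Tbx5 peak numbers, 60.4% are present. The labels list an input sample for each factor and stage, but whether it served as the control of the peak calls, and any pooling or later filters, are not stated in the labels or headers. A second deposited Pitx1 list of 17783 summits carries further columns with no explanation, and its positions served as an alternative.

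Gene bodies were those of RefSeq on GRCm38.p6 (the assembly of mm10), with 21887 placed protein-coding genes. The table gives no exons. A desert at a chromosome end has no length and enters no density, and desert lengths include assembly gaps. Motif counts planned at all summits were not run, since no genome sequence was used. Python 3.11.15, pandas 2.3.3 and scipy 1.17.1 were used, and the distance code was tested on simulated positions. The text names the 10 deserts with most sites, the 5 densest with at least 5, the 15 highest scores, 3 summits on each side of each threshold, 5 runs, and deserts from the first 5 of each of 11 gene lists. Some of these are not reported here. Alternatives changed the Pitx1 window, the distance from genes, the bounding genes, the Pitx1 list and the Tbx5 summits used. Members and lists were chosen with earlier results of these data known.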

Additional observations from a re-analysis of the deposited data

How the results depend on the processing

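No paired analysis was possible because each factor has 1 sample. Of 91 recomputed values under 13 alternatives, 61 stayed within the 95% interval of the value reported, or within 1.5 times for counts. Alternatives added after seeing the data were consecutive Pitx1 numbers, leaving out X and Y, and leaving out sites inside genes that are not protein-coding. The number of solitary sites, 992, became 589 at over 200 kb from genes and 1508 with the second Pitx1 list. It became 326 when genes that are not protein-coding, pseudogenes among them, also bounded deserts. This alternative is called all genes as bounds below. With the higher-scoring part of the Tbx5 list (at or above its median) the number was 429, and with consecutive Pitx1 numbers 643. Deserts holding a solitary site became 299, 219 and 296 with over 200 kb, all genes as bounds and the higher-scoring part. The share of desert Tbx5 summits became 56.6%, 47.3% and 32.3% with Pitx1 windows of 200, 500 and 5000 bp, and 64.0% with the second list. It became 47.2% with all genes as bounds and 33.4% with the higher-scoring part. With consecutive numbers it was 27.3%, and without sites in genes that are not protein-coding 34.5%. For both of these only solitary sites were left out, while all 2355 desert Tbx5 summits stayed in the total. The share could therefore only fall. The median score became 15.4 with the higher-scoring part, as its construction fixes. The share in the 10 fullest deserts became 6.21% and 12.2% at over 50 and 200 kb. It became 12.9% with all genes as bounds and 10.49% with the higher-scoring part. The share beside limb transcription factors, 7.66%, became 5.92% with the 5000 bp window and 2.76% with all genes as bounds. In the latter, the gene at either end could be one that is not protein-coding, so that share is a different measure. The share within 10 kb of another solitary site became 14.6%, 10.95% and 6.45% with windows of 200, 500 and 5000 bp. It became 15.3% with the second list and 11.04% with all genes as bounds. With the higher-scoring part it was 3.50%, and with summits within 1000 bp merged 6.33%. Where a looser window, fewer summits or more bounding genes made fewer or more members, the change follows from the construction. The cause of other moves was not tested. Read depth is unknown, so an absent Pitx1 summit is not an absence of Pitx1.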

Other observations

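Deserts hold no protein-coding genes by definition, but genes of other kinds are annotated in them. Bodies of genes that are not protein-coding cover 11.1% of the desert length, 9.29% being lncRNA genes, and 180 solitary sites or 18.1% (95% interval 15.8 to 20.7) fell inside one. For paired desert sites this share was 21.6% (19.5 to 23.9). The 180 sites were spread over 152 genes, and 168 of them were in lncRNA genes. D5Ertd615e and 1700019L22Rik held 4 each, with scores of at most 11.002 and 8.29, and Gm12132, Gm41264 and Gm19303 held 3 each. Another 4, with scores of at most 6.40, lay in Igh, the immunoglobulin heavy chain locus on chromosome 12, whose gene segments are not classed as protein-coding in the table. The median score was 6.40 inside such genes and 7.02 outside.

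By chromosome, chromosome 8 held 77 solitary sites and chromosome 12 held 76. Density among the autosomes ran from 0.750 per Mb on chromosome 17 to 2.02 on chromosome 8. On chromosome 15 solitary sites were 47 of 81 desert Tbx5 summits, or 58.0%, the highest share of any autosome, and on chromosome 7 33 of 96, or 34.4%, the lowest. The X and Y chromosomes held 10 solitary sites, with scores of at most 7.14, in 105 Mb of desert. Without them the density fell with distance from genes as before, with 1.98 per Mb at 100 to 200 kb and 0.759 beyond 1000 kb.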
